A study of Mus musculus with 6 samples.

Results

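The Hoxd cluster is a row of 9 homeobox genes on mouse chromosome 2 (Hoxd13, Hoxd12, Hoxd11, Hoxd10, Hoxd9, Hoxd8, Hoxd4, Hoxd3 and Hoxd1), all read in the same direction. The CpG sites of the cluster were chosen by position, as those that start within chr2:74500001-74606001 (mm9) and have at least 10 reads in all 6 libraries. There were 855 such sites of 943307 in the whole data set, and they are described here from the Hoxd13 end to the Hoxd1 end. Reduced representation bisulfite sequencing (RRBS), which cuts DNA with the enzyme MspI at CCGG and reads the methylation of CpGs near the cuts, had been applied to DNA of the kidney cortex and outer medulla of male wild type C57BL/6J mice. In 2 libraries the left ureter had been tied for 7 days (unilateral ureteral obstruction, a model of kidney fibrosis) with daily saline, and in 2 it had been tied for 7 days with daily injection of 5AZA at 1 mg/kg/day, an inhibitor of DNA methylation. Another 2 libraries came from sham surgery without ligation. Sham 1 is the control named for the obstruction, whereas the labels tie sham 2 to kidney ischemia/reperfusion and its name carries 48 h. The labels give no age and do not say which libraries came from separate mice, so p-values measure the spread between these libraries, which may be technical. The tissue is a mixture of cell types, so a level is an average over cells, and a different mixture cannot be told apart from different methylation within a cell type.

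Hox genes encode transcription factors that set position along the body axis and in the limbs, and the genes of a cluster lie in the order in which they are used. In the kidney, Hoxd11 acts together with its paralogs Hoxa11 and Hoxc11 in the formation of the organ before birth. Hox promoters are rich in CpGs and lie in chromatin marked by Polycomb proteins, a state in which CpG islands usually stay free of DNA methylation.

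Promoter sequences of all 9 genes were taken from RefSeq (GRCm38.p6), and 8 of the 9 could be set on the mm9 positions of the deposited CpG sites by the spacing of their CpGs. Of these, 7 fitted a single place on the chromosome with 7 to 27 matched sites, and Hoxd4 was set between its placed neighbours with 4 of 4 CpGs matched, by a rule added after seeing the data. The Hoxd8 promoter, with 6 CpGs, was not placed. The starts of the placed genes, in order, are Hoxd13 at 74506282, Hoxd12 at 74513070, Hoxd11 at 74520380, Hoxd10 at 74529948, Hoxd9 at 74535820, Hoxd3 at 74550050, Hoxd4 at 74560035 and Hoxd1 at 74601037. The Hoxd3 start in the table is that of a long transcript that begins before Hoxd4.

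The 250 bases before 4 of the starts are shown because they belong to the promoters that differed most. Hoxd13 and Hoxd1 are dense in CpGs and were almost unmethylated at their kept sites outside CCGG, and Hoxd12 and Hoxd4 were not. Levels given for a promoter run from 250 bases before to 50 after the start, so some of the sites behind them lie beyond the printed letters. All are on the plus strand of mm9, 5′ to 3′, with every CpG in capitals and all 4 letters of CCGG in capitals.
Hoxd13, chr2:74506032-74506281: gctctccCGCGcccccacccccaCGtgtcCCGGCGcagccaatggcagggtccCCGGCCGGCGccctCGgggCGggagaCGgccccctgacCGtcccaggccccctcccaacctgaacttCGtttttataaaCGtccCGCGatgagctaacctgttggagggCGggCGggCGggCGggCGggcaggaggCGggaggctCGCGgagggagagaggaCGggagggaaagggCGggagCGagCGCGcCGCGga
Hoxd12, chr2:74512820-74513069: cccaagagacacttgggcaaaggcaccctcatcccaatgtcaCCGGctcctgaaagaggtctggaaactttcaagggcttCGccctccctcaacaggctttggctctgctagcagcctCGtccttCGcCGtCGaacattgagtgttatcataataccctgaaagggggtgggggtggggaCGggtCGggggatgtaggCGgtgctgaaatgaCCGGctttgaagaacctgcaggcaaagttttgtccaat
Hoxd4, chr2:74559785-74560034: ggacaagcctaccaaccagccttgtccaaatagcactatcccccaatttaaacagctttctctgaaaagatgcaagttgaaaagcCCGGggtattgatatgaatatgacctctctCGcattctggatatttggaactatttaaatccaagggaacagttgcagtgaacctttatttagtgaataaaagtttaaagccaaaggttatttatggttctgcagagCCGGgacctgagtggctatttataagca
Hoxd1, chr2:74600787-74601036: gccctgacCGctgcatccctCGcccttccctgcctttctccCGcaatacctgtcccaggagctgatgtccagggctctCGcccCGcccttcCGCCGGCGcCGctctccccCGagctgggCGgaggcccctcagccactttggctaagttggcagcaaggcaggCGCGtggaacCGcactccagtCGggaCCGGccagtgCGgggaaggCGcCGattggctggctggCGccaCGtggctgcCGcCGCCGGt
Hoxd13 has 31 CpGs in this stretch and Hoxd1 has 24, against 10 for Hoxd12 and 3 for Hoxd4. The median over 32851 RefSeq promoters is 6. CCGG, which reads the same on both strands, occurs before the start in 7 of the 8 placed Hoxd promoters (87.5%) and in 47.1% of all RefSeq promoters over the same length. Hoxd3 is the exception. Placement needs covered CpGs, and RRBS covers those near CCGG, so the placed promoters were chosen in a way that favours CCGG. The unplaced Hoxd8 is not counted, and the share of all promoters was matched neither for coverage nor for CpG number. The shares are therefore not a like comparison.

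The 855 sites are dense but unevenly spread. Their median spacing was 9 bp, and of the windows of 1 kb 49 held at least 1 of them and 57 held none. The longest gaps were 9.002 kb between Hoxd3 and Hoxd4, 6.22 kb before Hoxd3 and 5.76 kb between Hoxd13 and Hoxd12. In all, 1252 sites of the region had been seen in any library, and 68.3% of them passed the minimum of 10 reads. Reads over the kept sites numbered 62507 in saline 1, 53251 in saline 2, 52208 in sham 1, 30131 in sham 2, 44126 in 5AZA 1 and 48345 in 5AZA 2. Sham 2 was the shallowest, with a median of 32 reads per site against 47 to 68 in the others, and it also stood apart in level. It was the lowest of the 6 libraries in 21 of the 41 testable windows of the cluster (51.2%) and in 31.7% of windows over the genome. Mean differences from sham, and differences from sham in single windows of the cluster, are therefore also given without it. Other differences from sham, such as medians over windows and those of related genes, use both sham libraries.

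Around most Hoxd starts the kept CpGs outside CCGG were almost unmethylated in every group. For promoters, stretches, the whole cluster and the genome, the methylation level is the percent of reads called methylated, averaged over sites. For windows of 1 kb it is methylated reads over all reads of the window. The error is the SD over the 6 libraries. At Hoxd13, the gene of the digits and genital bud, the 3 kept sites averaged 2.22% ± 2.92. They lie close together, from -243 to -227, so the rest of this promoter was not measured. The value was 4.65% in saline 1, 7.02% in sham 1, 0.866% in 5AZA 1 and 0.758% in 5AZA 2, and no methylated read was seen in saline 2 or sham 2. Neighbouring sites share reads, so the limit that a count of 0 allows was taken from the reads of the deepest single site. With 25 reads in saline 2 and 22 in sham 2 it is 12% and 13.6%. At Hoxd11, which shapes the forearm and the early kidney, the 21 sites averaged 2.62% ± 1.31, from 1.44% in sham 1 to 4.94% in saline 1. Hoxd10 and Hoxd9 act in the lumbar spinal cord and hindlimb. Hoxd10 averaged 2.89% ± 3.80 over 5 sites, and Hoxd9 2.42% ± 1.74 over 6. Hoxd3, a gene of the neck vertebrae, was the lowest, at 0.849% ± 0.659 over 5 sites. At Hoxd1, the last gene of the cluster, which acts in sensory neurons, the 19 sites averaged 2.02% ± 1.04, from 0.439% in sham 2 to 3.71% in saline 2. In these 6 promoters the libraries spanned from a few points up to the range at Hoxd10, from 0% in sham 2 to 9.16% in sham 1. At 1 of the Hoxd10 sites, 74529817, sham 1 stood at 31.25%. The groups overlapped or lay within a few points of each other. Sham 2 had no methylated read outside CCGG in 4 of the 6, Hoxd13, Hoxd10, Hoxd9 and Hoxd3. It was also the lowest at sites under 5% over the genome, at 0.708% against 1.56% to 1.86% in the others. At such sites of the cluster it stood at 0.861%, against 1.99% to 2.91%. With 52, 37 and 42 reads at the deepest site, its zeros allow up to 5.77% at Hoxd10, 8.11% at Hoxd9 and 7.14% at Hoxd3. These limits, and the intervals given later, cover counting error only, since PCR copies are not independent molecules.

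Hoxd12 and Hoxd4 departed from that pattern. Hoxd12 patterns the digits together with Hoxd13. Its 3 kept sites outside CCGG averaged 33.0% ± 3.44, with site means of 16.03% at -70, 40.04% at +10 and 43.0% at +46 from the start, so only the lowest of the 3 lies in the printed stretch. By library they stood at 28.9% in saline 1, 31.3% in saline 2, 35.1% in sham 1, 38.7% in sham 2, 31.4% in 5AZA 1 and 32.7% in 5AZA 2. The 6 libraries lay within 10 points of one another, with both sham libraries the highest. At Hoxd4, a gene of the hindbrain and neck, only 1 kept site lies outside CCGG, at 74559900, position -135 from the start. It was read as methylated in 37.2% of 43 reads in saline 1, 42.1% of 19 in saline 2, 63.6% of 22 in sham 1, 64.7% of 17 in sham 2, 33.3% of 48 in 5AZA 1 and 20.6% of 34 in 5AZA 2. Both sham libraries were the highest and both 5AZA libraries the lowest. In edgeR's quasi-likelihood test over all sites of the genome the difference of 5AZA from sham at this site, -37.2 points, had an unadjusted p of 0.00652 and an adjusted p of 0.948, and saline against sham had an adjusted p of 0.937. It is 1 of 849 tested sites and did not pass.

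CpGs inside CCGG gave another reading in the same promoters. The 15 kept CCGG sites lay in 7 promoters, from 250 bases before to 50 after the start, which include Hoxd3, by a site at +8 after its start, and not Hoxd13. They averaged 75.6%, with site means from 63.8% to 92.5%, whereas the 63 other sites averaged 4.38%. By library the CCGG sites stood at 78.5% and 76.1% with saline, 74.5% and 70.2% in sham, and 75.7% and 78.3% with 5AZA. Leaving out Hoxd12 and Hoxd4, a split made after seeing the values, 10 CCGG sites stood between 63.8% and 79.0% and 59 others between 0% and 7.34%, with no overlap. For example, the CCGG site at -88 from the Hoxd9 start averaged 76.1%, and the next kept CpG, at -77 and outside CCGG, averaged 1.49%. Per the labels' protocols, MspI ends were filled in with methylated dCTP, and a filled-in base at a fragment end is read as methylated whatever the genomic DNA held. Whether these particular reads end at the cut cannot be seen in the deposited counts, so its part in the CCGG levels was not tested. In the stretches that follow, levels are given without candidate fragment-end sites. Window values include these sites unless stated otherwise. A site counted as one by either of a pair of criteria. By the first, the reads on its 2 neighbours, both no farther than 220 bp and each with at least 10% of the site's own reads, added up to the site's reads within 5%. By the second, it stood at 30% or more while the median of its window, of 10 sites or more, was below 5%. The second criterion uses the level itself, so part of the drop in level without these sites is fixed by the rule. Together they marked 12.4% of the 855 sites and 11.2% of sites over the genome, and in the promoters 8 of the 15 CCGG sites and none of the 63 others.

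**Figure D1:**
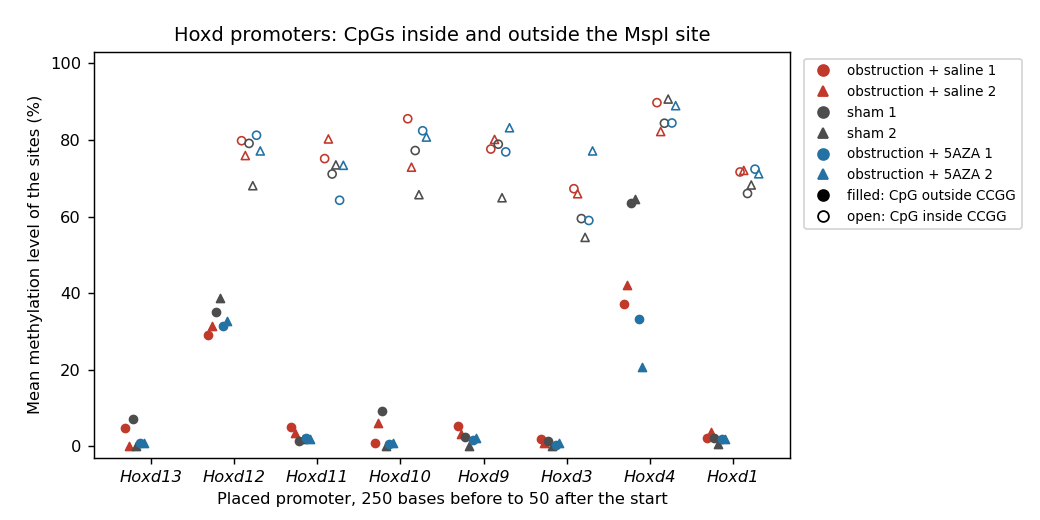
Mean methylation level (%) of kept CpG sites in the 8 placed Hoxd promoters, by library; filled markers are CpGs outside CCGG and open markers CpGs inside it, with colour for the group and shape for the library. Open markers lie above 50% wherever they exist, while filled markers lie under 10% except at Hoxd12 and at the single Hoxd4 site; Hoxd13 has no kept CCGG site.

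Along the cluster, stretches of low and of intermediate mean level alternated. Without candidate fragment-end sites, the 12 sites before Hoxd13 averaged 31.0% ± 1.67. The stretch from Hoxd13 to Hoxd12 was low, at 7.61% ± 1.014 over 56 sites, of which 87.5% were under 5%. From Hoxd12 to Hoxd11 the level was 21.9% ± 1.92 over 68 sites, and 35.3% of these sites stood between 20% and 80%. The stretch from Hoxd11 to Hoxd10 averaged 12.7% ± 0.679 over 151 sites. Between Hoxd10 and Hoxd9 only 15 sites remained, at 32.0% ± 1.69. This mean joins sites from 73.8% to 80.6% with others from 1.49% to 27.4%. The high ones include a CCGG site at +20 from the Hoxd10 start, at 75.8%, that neither criterion marked. Unmarked CCGG sites can thus still raise the mean of a stretch. The stretch from Hoxd9 to Hoxd3, which holds Hoxd8, was again low, at 7.34% ± 0.577 over 164 sites, 82.3% of them under 5%. From Hoxd3 to Hoxd4 the 23 sites averaged 20.5% ± 1.17. The longest stretch, 41 kb from Hoxd4 to Hoxd1, was the highest, at 34.7% ± 1.19 over 224 sites, and 43.8% of its sites stood between 20% and 80%. After the Hoxd1 start the 36 sites averaged 2.84% ± 0.909. The order of the stretches was far larger than the spread of the libraries: Hoxd4 to Hoxd1 ran from 33.2% to 36.6%, and Hoxd9 to Hoxd3 from 6.69% to 8.25%. The stretch before Hoxd13 and the one from Hoxd10 to Hoxd9 did not differ beyond their spread, nor did Hoxd13 to Hoxd12 and Hoxd9 to Hoxd3, or Hoxd12 to Hoxd11 and Hoxd3 to Hoxd4. The ranges of Hoxd4 to Hoxd1 and of Hoxd10 to Hoxd9, 29.4% to 34.5%, overlapped too.

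**Figure D2:**
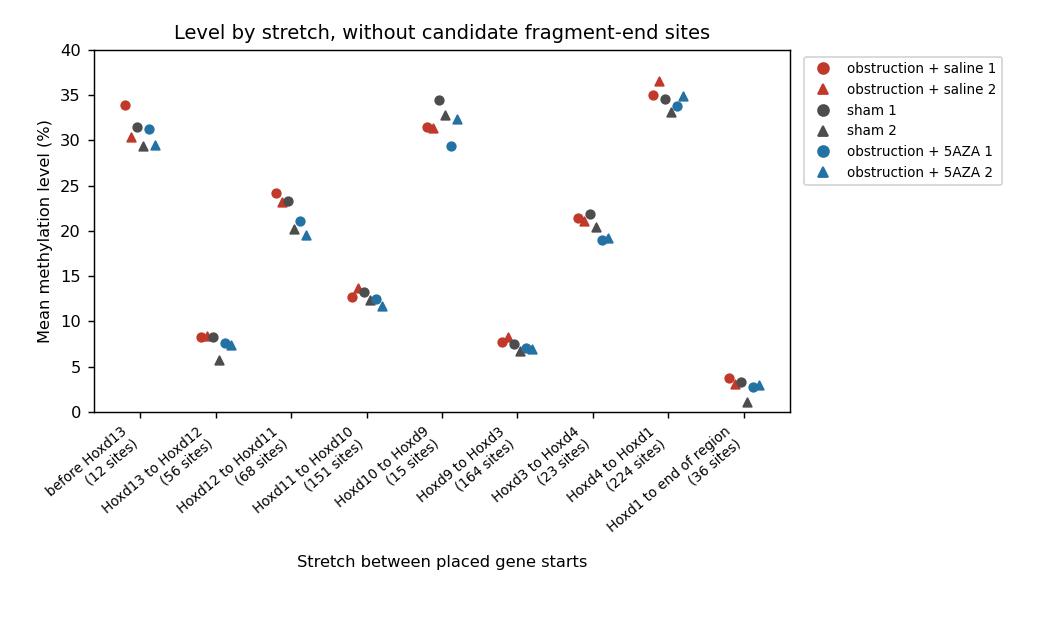
Mean methylation level (%) of each stretch between placed gene starts, without candidate fragment-end sites, by library, with the number of sites under each stretch. The libraries of all 3 groups lie close together within a stretch, and the stretches range from 2.84% after Hoxd1 to 34.7% between Hoxd4 and Hoxd1.

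**Figure D3:**
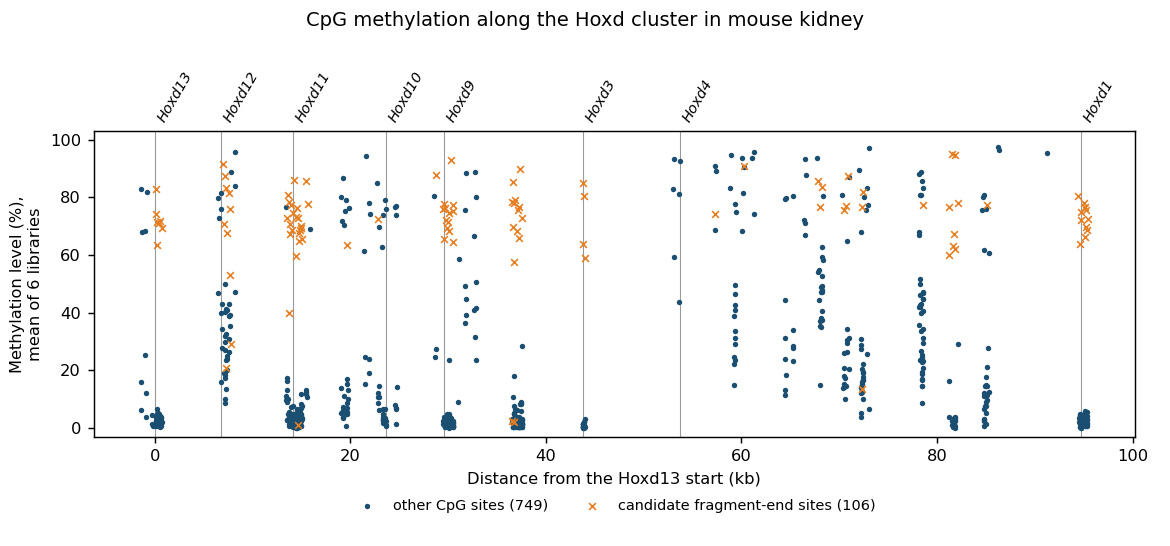
Methylation level (%, mean of 6 libraries) of each of the 855 kept sites against distance from the Hoxd13 start in kb; vertical lines mark the placed starts, crosses the candidate fragment-end sites. Clusters of sites near 0 sit at Hoxd13, Hoxd11, Hoxd9, Hoxd3 and Hoxd1, and columns of sites spread from 10% to 90% lie beyond Hoxd4 and at Hoxd12.

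Intermediate sites made up a larger share in the cluster than over the genome. Without candidate fragment-end sites, 53.7% of the cluster's sites stood under 5%, against 47.5% over the genome and a median of 59.8% over blocks of the cluster's length, of which 61.8% held a larger share. Sites from 5% to 20% made up 17.8% against 5.59%, and sites from 20% to 80% made up 22.03% against 12.8%. Sites at 95% or more were rare, at 0.801% against 14.4%. Among 2376 blocks of the cluster's length with at least 100 such sites, 10.98% held a larger share between 20% and 80%. None of the 3031 blocks formed with all sites held more sites than the cluster, whose mean level was 25.4% against a block median of 33.0%. These shares describe where the cluster stands and carry no test.

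Windows with more kept CpG sites had lower levels. With all sites, the 8 windows with 40 or more sites had a median of 14.1%, the 14 windows with 10 to 39 sites 28.9%, and the 19 with 3 to 9 sites 54.5%. Without candidate ends the medians were 2.82%, 19.9% and 54.5%. The second criterion acts only in windows of 10 sites or more with a low median, so part of this wider contrast is fixed by the rule. High sites in windows of 3 to 9 sites cannot be marked by it and stay in their levels. For example, the 7 sites of chr2:74530001-74531000 ran from 1.52% to 77.1% with a median of 8.13%. Its window level was 40.6%, with 0 sites marked. How far such sites raise the median of the sparse windows was not tested. There were 2 exceptions among the 8 dense windows, counted at a limit of 20% that was chosen after seeing the values. The window that holds the Hoxd12 start, chr2:74513001-74514000, stood at 33.6% over the libraries, and 22 of its 31 sites lay between 20% and 80%. The other, chr2:74584001-74585000, between Hoxd4 and Hoxd1, stood at 43.9%, with site means from 8.81% to 88.8%. Over the genome 80 of 3953 such windows (2.02%) were at 20% or more.

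The comparison of obstructed saline kidneys with sham asks whether obstruction went with other methylation in the cluster. The mean level over the 855 sites was 26.1% in saline 1 and 26.5% in saline 2, against 25.8% in sham 1 and 24.0% in sham 2. Saline was higher by 1.38 points (26.3% ± 0.337 against 24.9% ± 1.23, SD, n = 2 each), a difference close to the gap between the sham libraries. Without sham 2 it was 0.505 points, and over the genome 1.61 points, or 0.865 without sham 2. Read-weighted, as methylated reads over all reads, the difference was 0.794 points in the cluster (-0.287 without sham 2). Over the genome it was then -0.0686 points (-1.82 without sham 2), so these differences depend on how sites are weighted. In windows of 1 kb with at least 3 sites, tested with edgeR's quasi-likelihood test on methylated and unmethylated counts and Benjamini-Hochberg adjustment over all 89813 windows of the genome, 0 of the 41 windows of the cluster were called at an adjusted p under 0.05, against 0.0501% over the genome. At an unadjusted p under 0.05, 5 of the 41 were higher with saline and 0 lower, where 8.7% and 1.72% of windows were so over the genome. limma called 0 and had 1 at an unadjusted p under 0.05. The smallest adjusted p in the cluster was 0.327, at the window of the Hoxd11 start. The saline pair stood wholly above the sham pair in 9 windows (21.95%) and wholly below it in 6 (14.6%), against 32.3% and 9.73% over the genome. The median window difference was 0.994 points in the cluster and 1.13 over the genome. Of 849 single sites tested, 0 were called by edgeR (0.00293% over the genome) and 47 had an unadjusted p under 0.05 (5.54%, against 3.99%).

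Over the 41 windows the difference of saline from sham ran from -12.7 to 14.04 points, the lowest in a window of 3 sites between Hoxd10 and Hoxd9, where it was -5.07 without sham 2. The 3 highest among windows of at least 5 sites all lay between Hoxd4 and Hoxd1. The first was in chr2:74571001-74572000, a window of 5 sites, at 51.2% and 41.2% with saline, 34.3% and 30.1% in sham, and 30.8% and 43.6% with 5AZA. Saline was 14.04 points above sham (edgeR adjusted p = 0.353), and 11.96 points above sham 1 alone. Without saline 1 it was 9.04 points. In chr2:74577001-74578000, with 9 sites, saline stood at 55.4% and 59.1%, sham at 49.7% and 46.3%, and 5AZA at 53.5% and 49.6%. Both saline libraries were above both sham libraries, by 9.28 points on average (edgeR adjusted p = 0.355; 7.59 points without sham 2). Without candidate ends the difference was 12.1 points. The dense window chr2:74584001-74585000, whose 41 sites make it the deepest of these, stood at 46.2% and 47.7% with saline against 41.3% and 39.9% in sham, and at 44.99% and 51.2% with 5AZA. Here all 4 obstructed libraries were above both sham libraries. The difference of saline from sham was 6.36 points (edgeR adjusted p = 0.348; 5.67 points without sham 2). The 95% Wilson intervals of saline 1 (44.4% to 48.1%) and sham 1 (39.1% to 43.5%) do not overlap, which speaks to counting error only. The lowest differences in windows of that size were -5.49 points in chr2:74559001-74560000, which holds most of the bases before the Hoxd4 start, -4.43 in chr2:74574001-74575000, and -3.88 in chr2:74539001-74540000. Without sham 2 they were -9.85, -4.91 and -3.94. The first was -1.12 without sham 1, and the last ran from -6.59 without saline 2 to -1.17 without saline 1, so the sizes of the first and the last rest on single libraries.

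With 5AZA the obstructed kidneys stood at 24.9% and 25.0%, 1.34 points below saline (25.0% ± 0.0743 against 26.3% ± 0.337), and over the genome 2.04 points below. Read-weighted, the difference was 0.0485 points in the cluster and 0.819 points over the genome, with 5AZA above saline. Both values therefore depend on how sites are weighted. None of the 41 windows was called by edgeR (0 of 41, against 1.55% over the genome) or by limma. At an unadjusted p under 0.05, edgeR had 0 of the 41 windows higher and 4 lower, against 0.411% and 22.8% over the genome, and limma had 1. The 5AZA pair stood wholly below the saline pair in 14 windows (34.1%, against 49.1% over the genome) and wholly above it in 3 (7.32%, against 5.69%). The median window difference was -1.44 points, and -2.70 over the genome. Of the 849 sites, 0 were called (0.00163% over the genome), and 26 had an unadjusted p under 0.05 (3.06%, against 5.23%).

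How far 5AZA stood from saline went with the level of the window. In the 9 windows under 20% the median difference from saline was -0.00305 points, and in the 24 windows from 20% to 60% it was -1.33. In the 8 windows at 60% or more it was -5.82, with 8 of 8 lower. Over the genome these medians were 0.00653, -1.21 and -3.90, with 89.9% of the highest windows lower. The cluster has few windows of that last kind.

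The window with the smallest adjusted p against saline was chr2:74538001-74539000, 8 sites between Hoxd9 and Hoxd3, of which 7 stand between 20% and 80% and the highest at 88.5%. It was 57.6% in saline 1, 61.6% in saline 2, 61.8% in sham 1, 64.2% in sham 2, 43.5% in 5AZA 1 and 47.0% in 5AZA 2. Both 5AZA libraries were below the other 4, by more than 10 points. The difference from saline was -14.3 points (edgeR adjusted p = 0.0756) and that from sham -17.7 points (edgeR adjusted p = 0.129; -16.5 points without sham 2), and neither passed. The reads behind each library numbered 191 to 361. The 95% Wilson intervals ran from 36.6% to 50.5% in 5AZA 1 and from 40.8% to 53.4% in 5AZA 2. The interval of saline 1, 51.8% to 63.2%, overlapped that of 5AZA 2, and that of saline 2, 55.6% to 67.2%, overlapped neither. These intervals speak to counting error only. The replicate numbers of the labels, used as a block, bring this window and that of the Hoxd11 start past the threshold, but the numbers were not shown to pair the libraries.

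Next to it, chr2:74539001-74540000 stood at 52.7% and 58.1% with saline, 59.3% and 59.2% in sham, and 53.7% and 44.3% with 5AZA. There 5AZA 2 was the lowest, both 5AZA libraries were below both sham libraries, and 5AZA and saline overlapped. In chr2:74579001-74580000, between Hoxd4 and Hoxd1, 5AZA stood at 55.8% and 59.9%, below the 69.4% and 62.7% of saline and the 68.2% and 70.2% of sham. The difference from saline was -8.20 points (edgeR adjusted p = 0.201; -4.85 points without saline 1) and that from sham -11.3 (edgeR adjusted p = 0.249; -10.3 points without sham 2). The second lowest difference from saline among windows of at least 5 sites, in chr2:74571001-74572000, was -9.05 points, with 5AZA 2 above saline 2. It ran from -15.5 points without 5AZA 2 to -2.62 without 5AZA 1. The highest differences of 5AZA from saline among windows of at least 5 sites were small: 2.21 points in chr2:74591001-74592000, 1.74 in chr2:74588001-74589000 and 1.62 in chr2:74530001-74531000, the last -0.185 without saline 2.

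Against sham, the 5AZA kidneys were 0.0416 points higher over the 855 sites, and the difference was -0.830 points when sham 2 is left out. Over the genome the difference was -0.432 points, or -1.18 without sham 2. Read-weighted, 5AZA was 0.842 points above sham in the cluster (-0.238 without sham 2) and 0.750 over the genome (-0.997 without sham 2). No window was called by edgeR (0 of 41, against 0.00111% over the genome) or by limma. edgeR gave 2 windows higher and 7 lower at an unadjusted p under 0.05 (of 41, against 1.43% and 13.3% over the genome), and limma gave 4. The 5AZA pair stood wholly above the sham pair in 8 windows (19.5%, against 12.9%) and wholly below it in 10 (24.4%, against 31.9%). Of 849 sites, 0 were called (0.00152% over the genome) and 30 had an unadjusted p under 0.05 (3.53%, against 3.52%). The dense window chr2:74584001-74585000 was 7.49 points above sham (edgeR adjusted p = 0.181; 6.80 points without sham 2 and 4.38 without 5AZA 2), and no window of at least 5 sites stood higher. Among windows of at least 5 sites the lowest after chr2:74538001-74539000 was chr2:74559001-74560000, just before Hoxd4. Its 5 sites stood at 62.0% and 66.0% with 5AZA against 81.5% and 72.7% in sham and 72.6% and 70.6% with saline, a difference from sham of -13.1 points (edgeR adjusted p = 0.211). It was -17.5 points without sham 2 and -8.72 without sham 1. This window holds the Hoxd4 site at 74559900 given above, so the results at the site and in the window are not independent. Of the 5 sites 4 were lower with 5AZA than in sham and 1 was higher. At 1 site both 5AZA libraries were below both sham libraries, and that is the site at 74559900. The comparisons share libraries, so they are given side by side and not as support for one another.

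**Figure D4:**
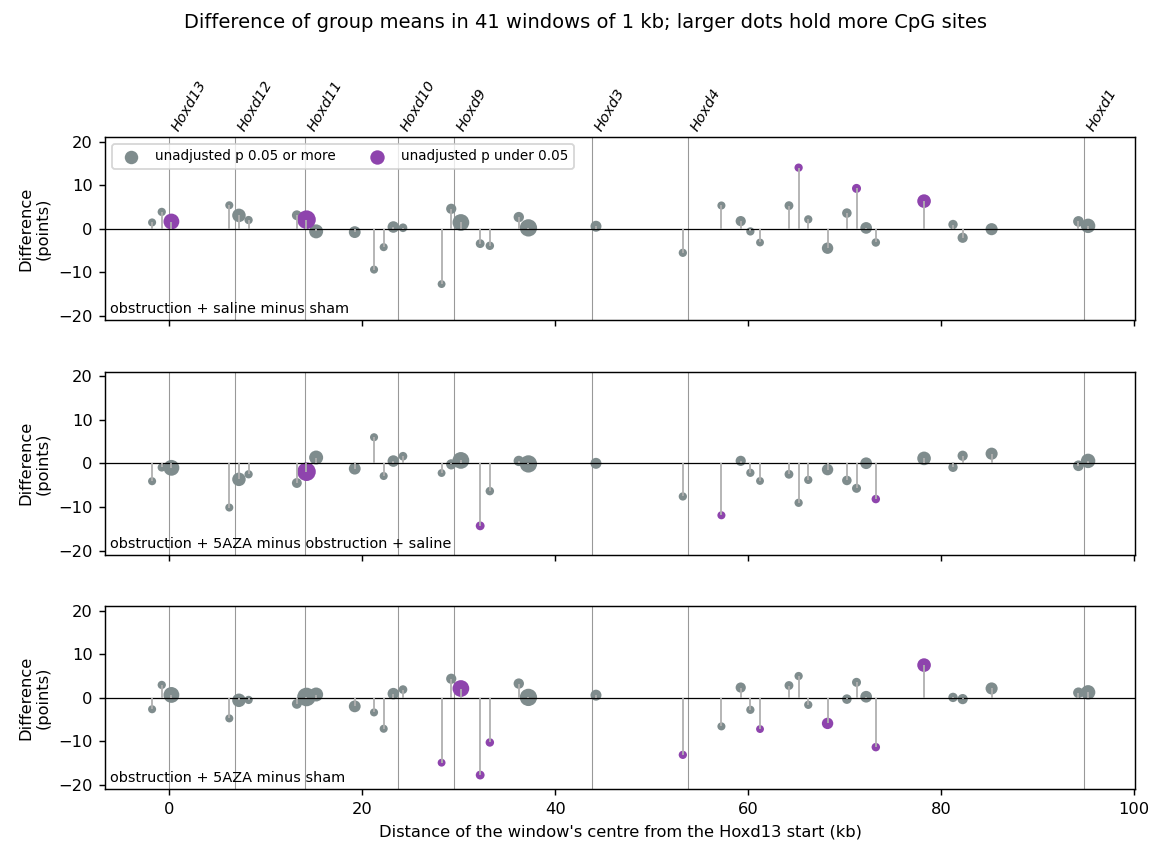
Difference of group means (percentage points) in the 41 tested windows against distance of the window's centre from the Hoxd13 start in kb, one panel per comparison; dot size rises with the number of sites and purple marks an unadjusted edgeR p under 0.05. No window passed adjustment; in the panel of 5AZA against sham the dot farthest from 0 is chr2:74538001-74539000, at -17.7 points.

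**Figure D5:**
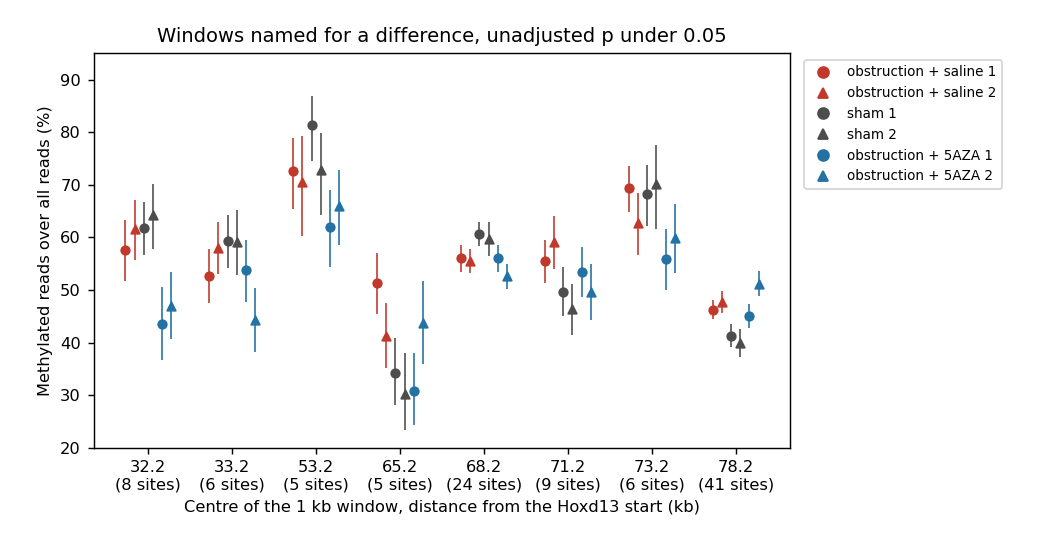
Methylated reads over all reads (%) with 95% Wilson intervals in the 8 windows named for a difference that had an unadjusted p under 0.05 in a comparison (windows named only for a start are not drawn), by library, placed by the window's centre in kb from the Hoxd13 start. In the window at 32.2 kb both 5AZA libraries lie below the other 4; in the window at 78.2 kb all 4 obstructed libraries lie above both sham libraries.

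At the gene starts themselves the groups stood close together. The window of the Hoxd11 start, chr2:74520001-74521000, with 90 sites, was 14.4% and 13.2% with saline, 11.6% and 11.8% in sham, and 11.8% and 11.9% with 5AZA. Both saline libraries were the highest, by 2.11 points over sham (edgeR adjusted p = 0.327; 2.20 points without sham 2) and 1.93 over 5AZA (edgeR adjusted p = 0.145). Without candidate ends the same window ranged from 1.42% to 3.38% over the libraries. The window of the Hoxd13 start stood at 13.7% and 12.7% with saline, 11.7% and 11.3% in sham, and 12.5% and 11.9% with 5AZA, with an edgeR adjusted p of 0.453 for saline against sham. Without candidate ends this window ranged from 1.59% to 3.05% over the libraries. At Hoxd12 the values were 50.9% and 48.1%, 48.7% and 44.1%, and 48.2% and 43.4%, and the groups overlapped. The windows of Hoxd10, Hoxd9, Hoxd3 and Hoxd1 differed from sham by 0.426, 4.60, 0.601 and 0.692 points with saline, with edgeR adjusted p from 0.506 to 0.955. Without sham 2 these were -0.321, 2.82, -0.701 and -2.21 points, so at Hoxd10, Hoxd3 and Hoxd1 the sign turned without that library. At Hoxd9 the difference was 2.25 points without candidate ends. The window with the Hoxd4 start holds 1 kept site and was not tested.

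For the related genes, the list comprised the 34 genes of the Hoxa, Hoxb and Hoxc clusters and the genes that flank Hoxa and Hoxd. Of these, 17 had a promoter sequence, 6 were placed and 5 had a tested start window: Hoxa5, Hoxa6, Hoxa11, Hoxa13 and Lnpk. In saline against sham 1 of the 5 was called by edgeR, and in 5AZA against saline 1, both times Hoxa5, at 13.01 points above sham (adjusted p = 0.0429) and 11.98 points above 5AZA (adjusted p = 0.0268). In 5AZA against sham 0 were called, by the same test. Over the genome 0.0501%, 1.55% and 0.00111% of windows were called in these 3 comparisons. Its start window stood at 30.8% and 35.8% with saline, 21.7% and 18.8% in sham, and 22.6% and 20.0% with 5AZA. Of the Hoxd starts that were tested, 0 were called. Lnpk, the nearest placed neighbour of the cluster, was 11.9% and 10.2% with saline, 10.1% and 12.5% in sham, and 10.0% and 7.69% with 5AZA. Saline and sham overlapped. Both 5AZA libraries were below both saline and both sham libraries, with edgeR adjusted p of 0.609 against saline and 0.762 against sham.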

How the data were processed

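RRBS libraries of mouse kidney were compared in 3 groups of 2 (obstruction with saline, obstruction with 5AZA, sham). The submitters' processing notes name Bowtie and mm9; the Bowtie version, and what called the sites, were not given in the sources used here. Tables the authors deposited give, per CpG, the count of reads, the count of methylated reads and the methylated fraction, the authors' own values; counts were used here and levels computed from them. Per the labels' protocols DNA was cut with MspI, ends were repaired with methylated dCTP, and inserts of 40 to 120 and 120 to 220 bp were taken. A sequence of mm9 and its annotation were not used here; promoters from RefSeq (GRCm38.p6) were set on the deposited CpG positions by spacing alone, needing at least 5 matched sites, no mismatch and a single best place.

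Sites needed 10 reads in each library. edgeR 4.0.16 (R 4.3.3) fitted methylated and unmethylated counts of 89813 windows of 1 kb, with an intercept per library, and of 920122 single sites. P-values were adjusted over all of them by Benjamini-Hochberg, at a threshold of 0.05. Reads over the region ranged from 30131 to 62507 per library. The windows named are, per comparison, the 3 highest and 3 lowest differences of group means among windows with at least 5 sites, and those that hold a placed start; 0 were called. Alternatives were limma 3.58.1 (counts + 1), Fisher's exact test on pooled counts, coverage minimums of 5 and 20, windows of 500 bp, other site minimums, leaving out candidate fragment ends, the deepest 0.1% of sites or each library, fitting only the 4 libraries compared, and a replicate block.

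The members and lists were chosen with earlier results of these data known. The Hoxd4 place, the split of promoters without Hoxd12 and Hoxd4, the count of dense windows and the alternatives for the start windows were added after seeing the data. Evx2 fitted the placement rule with 5 sites, but far from the cluster it flanks, and was dropped for that reason. The fit was tested on simulated data. It recovered none of the changes in a first simulation with moderate changes and wide spread between libraries, and most windows but under a majority of sites in one with larger changes and narrower spread, which was drawn up after the first had been seen. A count of 0 calls is therefore weak evidence of no difference.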

Additional observations from a re-analysis of the deposited data

How the results depend on the processing

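Pooling the libraries of a group for Fisher's exact test, which ignores the spread between libraries, called 6 windows of the cluster for saline against sham, 8 for 5AZA against saline and 8 for 5AZA against sham. All other alternatives except the replicate block gave 0, as did leaving out each library in turn (0 to 0 in every comparison), for windows and for sites. The replicate block, possible only for 5AZA against saline, called 2 windows of the cluster, those of the Hoxd11 start and chr2:74538001-74539000, and 6890 over the genome. Same-numbered deviations correlated at 0.0762, so the numbers were not shown to pair the libraries. No paired analysis was possible for the comparisons with sham because sham 2 carries no number that it shares with the others.

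The mean difference of 5AZA from saline was 0.0485 points by read-weighted means. Of the differences in named windows 6 changed sign under 10 settings. For saline against sham they were those of the starts of Hoxd10 (-0.512 without saline 1 and -0.321 without sham 2, to 1.36 without saline 2), Hoxd3 (-0.701 without sham 2 to 1.90 without sham 1) and Hoxd1 (-2.21 without sham 2 and -0.500 without saline 2, to 3.59 without sham 1). The fitted sign alone turned at Hoxd10 when candidate ends were found by coverage (mean difference 0.0143) and at Hoxd3 at a coverage minimum of 20 (0.0872). The others were chr2:74530001-74531000 for 5AZA against saline, -0.185 without saline 2 (to 3.43 without saline 1); chr2:74571001-74572000 for 5AZA against sham, -1.44 without 5AZA 2 (to 11.4 without 5AZA 1); and chr2:74588001-74589000 for 5AZA against saline, -2.06 without candidate ends. The cause was not tested. Another 393 values of named windows kept direction and side of the threshold and 16 passed it, 14 by Fisher's test and 2 by the block. Over leave-one-out fits the mean difference ranged from 0.505 to 2.25 points for saline against sham, from -1.57 to -1.10 for 5AZA against saline, and from -0.830 to 0.913 for 5AZA against sham. Levels of 13 of 87 promoter values and 21 of 99 stretch values moved by more than 1 SD, in each case with another coverage minimum or without candidate ends. With 2 libraries a group and 30131 reads in the shallowest, small differences were not detectable.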
